A study of Mus musculus with 16 samples.

Results

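Genes of the Wnt, Fgf, Bmp and Hedgehog ligand families carried H3K27me3 at most of their starts in haploid spermatids, and H3K4me3 was called at few. The set holds 52 autosomal mouse genes of the 20780 autosomal protein-coding genes in the GENCODE vM21 annotation of mm10: 19 Wnt genes, 20 Fgf genes, 10 Bmp genes with Nodal counted among them, and 3 Hedgehog genes. Fgf11, Fgf12 and Fgf14 are Fgf homologues that stay inside the cell, and they are counted among the Fgf genes. The 52 genes were chosen by name and family and not by their values, though with earlier results of these data known. H3K27me3 was above the IgG control at 42 of the 52 starts, H3K4me3 at 7 and H3K9me3 at none. Of all 20780 genes, 22.3% were above it in H3K27me3, 44.9% in H3K4me3 and 3 genes in H3K9me3. Between KO and WT no ligand gene that could be tested passed the adjustment for any target.

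The libraries came from spermatids sorted live on Hoechst and propidium iodide from 4 non-mated males of 2 months. Each of 2 sibling pairs held 1 WT male (+/Y) and 1 male hemizygous for the triple H2A.B knockout (ΔH2A.B/Y, here KO). The KO strain goes back to a single founder, edited as a zygote of mixed B6 and SJL background, with CRISPR lesions in H2afb1, H2afb2 and H2afb3. It was then backcrossed to C57BL/6J. The paper calls the resulting backgrounds relatively isogenic, and its SNP typing found KO animals mostly but not wholly C57BL/6J. H2A.B is a short H2A variant made in the testis. Each animal gave 4 AutoCUT&RUN libraries, an assay in which an antibody tethers micrococcal nuclease to chromatin and the cut fragments are sequenced, with antibodies to H3K4me3, H3K27me3 and H3K9me3 and with IgG. This made 16 libraries in 8 groups of 2. Replicates 1 and 2, taken here as the 2 sibling pairs, also carry different codes in their titles, so the pair and whatever these codes mark cannot be told apart.

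Distinct fragments per library ranged from 159611 to 6746382. The IgG libraries and the H3K27me3 library of WT replicate 2, with 200457, were the shallowest. In that H3K27me3 library 1 fragment weighed 4.99 RPM, the fragments per 1000000 distinct fragments of the library, against 0.263 RPM in KO replicate 1. Spermatid markers such as Gapdhs and Pgk2 were checked first: H3K4me3 was called at 13 of 14 of their starts and H3K27me3 at none. Of the spermatocyte markers, genes of the meiotic stage before, H3K4me3 was called at 5 of 6 and H3K27me3 at none, with Sycp1 and Sycp3 at 16.8 and 16.5 RPM of H3K4me3. H3K27me3 was called at 7 of 8 Sertoli markers, at 5 of 6 spermatogonial markers, at 2 of 6 Leydig markers, at 2 of 4 peritubular and endothelial markers and at none of 3 blood markers. Among these 5 lists H3K4me3 was called at 1 gene, the Sertoli marker Inha with 5.88 RPM. The part of other cells in the results was not tested. Each library pools many sorted cells, so a low level in all cells and a high level in few cannot be told apart. The lesions in the H2afb genes were not checked from fragment positions.

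Wnt, Fgf, Bmp and Hedgehog proteins are the main secreted signals of the vertebrate embryo. Each family binds its own receptors: Frizzled proteins for Wnt, tyrosine kinase receptors for Fgf, serine/threonine kinase receptors for Bmp and Nodal, and Patched for Hedgehog. Genes of this kind are classic targets of Polycomb repression, in which Polycomb repressive complexes place H3K27me3 over CpG-rich gene starts and keep them silent. H3K4me3 marks starts that are active or ready to be, and in germ cells and pluripotent cells some developmental genes carry both marks. H3K9me3 belongs to heterochromatin and silenced repeats.

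The bases before the start are shown for the ligand genes that stood at the ends of the H3K27me3 order, so that their CG dinucleotides can be compared. Each line gives 250 bases, 5′ to 3′ on the gene's strand, that end just before the RefSeq start on GRCm38.p6, with every CG in capitals. The first 3 are the highest in H3K27me3 with an entry in the promoter table, Wnt3 at chr11:103773925-103774174 (+), Wnt10b at chr15:98778151-98778400 (-) and Wnt1 at chr15:98789607-98789856 (+). The last 2 are from starts with no H3K27me3 fragment, Fgf23 at chr6:127072652-127072901 (+) and Fgf7 at chr2:126034408-126034657 (+). Fgf15, the second highest, and Fgf20, the third start with no fragment, had no entry there, and the window of Fgf20 was rich in CG (described with the CG ratios).
Wnt3: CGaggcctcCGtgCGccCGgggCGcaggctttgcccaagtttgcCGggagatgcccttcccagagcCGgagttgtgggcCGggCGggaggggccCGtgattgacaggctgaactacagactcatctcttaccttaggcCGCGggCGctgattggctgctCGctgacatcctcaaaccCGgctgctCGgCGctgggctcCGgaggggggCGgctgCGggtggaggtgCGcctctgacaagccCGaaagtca
Wnt10b: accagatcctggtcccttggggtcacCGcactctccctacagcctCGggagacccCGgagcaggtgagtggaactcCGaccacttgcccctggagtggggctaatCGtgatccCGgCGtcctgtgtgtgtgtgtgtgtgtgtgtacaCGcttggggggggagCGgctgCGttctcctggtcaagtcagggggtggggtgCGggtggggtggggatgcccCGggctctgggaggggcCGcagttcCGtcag
Wnt1: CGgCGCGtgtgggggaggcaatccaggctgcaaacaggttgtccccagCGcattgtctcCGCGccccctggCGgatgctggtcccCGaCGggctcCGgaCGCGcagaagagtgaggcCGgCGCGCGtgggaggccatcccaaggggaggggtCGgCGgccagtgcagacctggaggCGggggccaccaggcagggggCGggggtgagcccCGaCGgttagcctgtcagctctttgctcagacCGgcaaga
Fgf23: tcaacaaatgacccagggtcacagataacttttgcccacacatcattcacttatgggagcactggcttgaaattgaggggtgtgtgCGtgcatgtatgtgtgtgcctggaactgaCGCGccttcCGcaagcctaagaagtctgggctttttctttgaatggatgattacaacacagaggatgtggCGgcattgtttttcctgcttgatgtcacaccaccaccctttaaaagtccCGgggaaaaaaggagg
Fgf7: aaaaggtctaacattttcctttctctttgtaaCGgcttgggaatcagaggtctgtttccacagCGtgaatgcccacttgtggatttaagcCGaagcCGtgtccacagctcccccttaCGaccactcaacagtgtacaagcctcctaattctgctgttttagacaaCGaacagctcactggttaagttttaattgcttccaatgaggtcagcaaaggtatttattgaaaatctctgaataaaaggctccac

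The stretch of Wnt3 held 22 CG and that of Wnt1 held 23, which 15.3% and 13.7% of all 31396 autosomal entries in the promoter table reached or passed. That of Wnt10b held 14, reached by 29.9%. Fgf23 and Fgf7 held 6 CG each, the median of the table. CG reads the same on both strands, and a match is a count of letters only. Of the 52 ligand genes 35 had an entry within 1 kb of the start used here, with a median of 18 CG.

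At gene starts, meaning the window from 1 kb before to 1 kb after the annotated start of the gene, Wnt3 held the most H3K27me3 of the ligand genes. Wnt3, a Wnt needed for the primitive streak, had 74.1 and 53.4 RPM in the 2 KO libraries and 60.2 and 59.9 RPM in the 2 WT libraries (mean 61.9 ± 8.72, SD, n = 4), above 99.6% of all genes. Fgf15, the mouse endocrine Fgf that signals from gut to liver, had 72.3 and 33.7 RPM in KO and 68.8 and 49.9 RPM in WT. Wnt10b, a Wnt of bone, fat and mammary gland, had 55.4 and 81.5 RPM in KO and 43.2 and 39.9 RPM in WT. All 4 libraries were high at these genes, and those of KO and WT overlapped at Wnt3 and Fgf15. At Wnt10b they did not, but WT replicate 2 rested on 8 fragments there and no difference was called. Across the body of Wnt10b the genotypes overlapped.

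Wnt1, which patterns the midbrain, had 37.8 and 46.4 RPM in KO and 42.5 and 74.8 RPM in WT. Fgf9, an Fgf that promotes testis formation in the embryo, had 59.1 and 23.9 RPM in KO and 47.4 and 64.9 RPM in WT. Nodal, the Tgf-beta family ligand of the early embryo, had 56.0 and 43.6 RPM in KO and 45.0 and 49.9 RPM in WT. The highest value at Wnt1 and both the lowest and the highest at Fgf9 came from pair 2, where these starts rested on 13 to 33 fragments per library. IgG held no fragment at the starts of Fgf15, Wnt1, Fgf9 and Nodal.

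The 3 Hedgehog genes were all marked, with Dhh the highest. Dhh, the Hedgehog that Sertoli cells secrete, had 42.0 and 35.1 RPM in KO and 39.8 and 34.9 RPM in WT. Ihh, the Hedgehog of cartilage and gut, had 37.8 and 37.9 RPM in KO and 36.3 and 24.9 RPM in WT. Shh, the Hedgehog of limb and neural tube, had 15.8 and 7.02 RPM in KO and 16.6 and 24.9 RPM in WT. Shh lay below the other two in 3 of the 4 libraries, and in WT replicate 2 it equalled Ihh with 5 fragments each.

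Bmp8a and Bmp8b, both on chromosome 4 and with roles in spermatogenesis, were marked too. Their starts lie at positions 123343252 and 123105165, more than 200 kb apart. Bmp8a had 43.6 and 26.7 RPM in KO and 39.1 and 29.9 RPM in WT. Bmp8b had 34.4 and 19.7 RPM in KO and 31.1 and 49.9 RPM in WT. The ranges overlapped between the genes and between the genotypes. The windows of this pair shared 0% of their 25-base words, the length of a read.

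**Figure D1:**
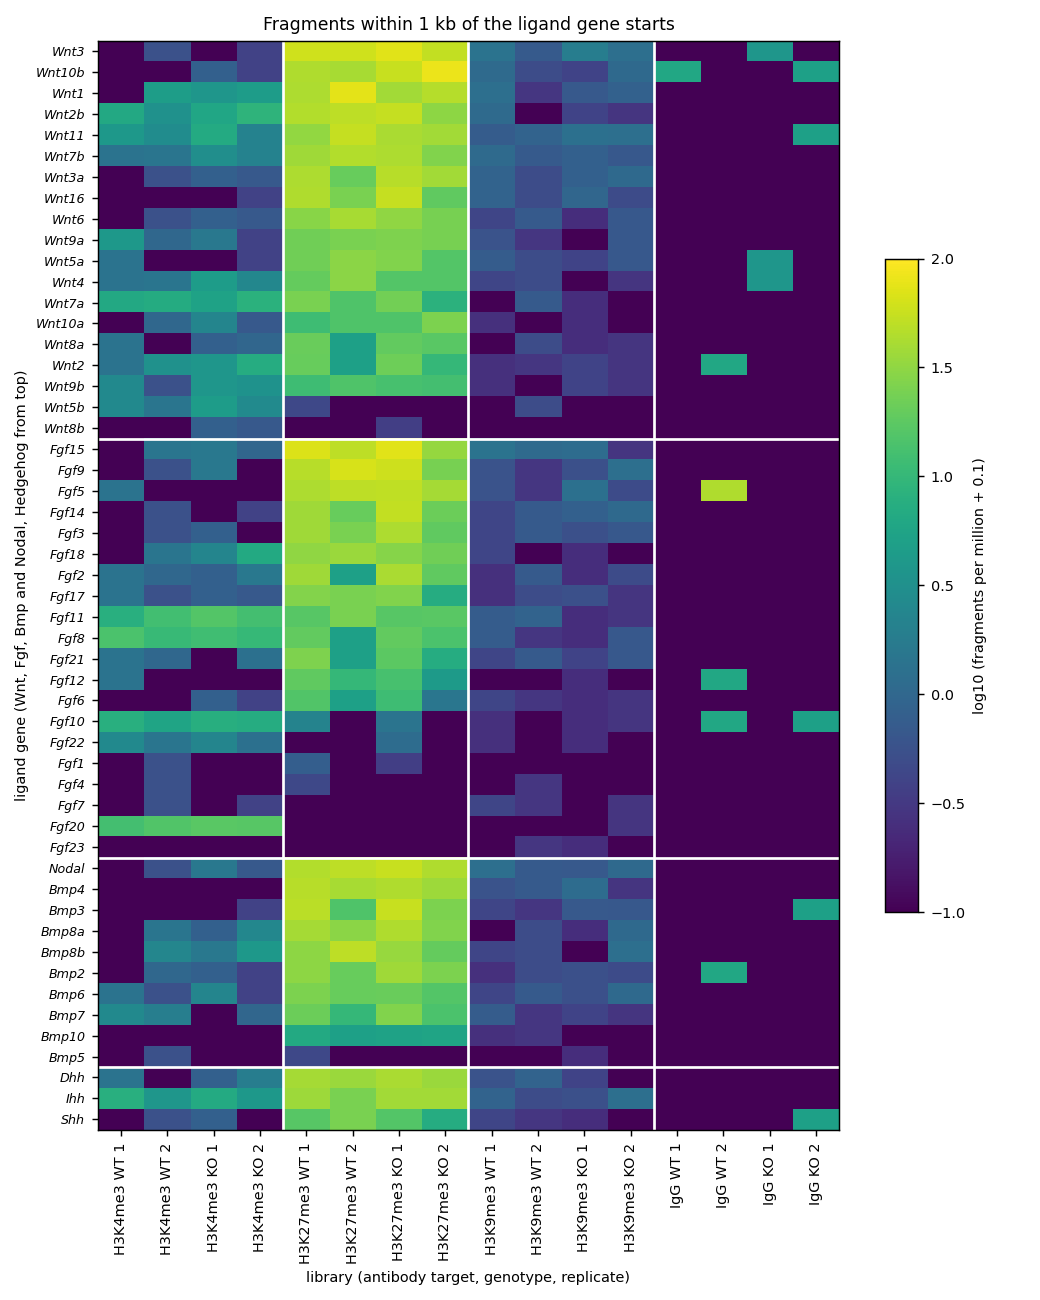
Fragments within 1 kb of each of the 52 ligand gene starts (rows, by family and then by mean H3K27me3) in the 16 libraries (columns, by target, genotype and replicate), as log10 of RPM plus 0.1. The 4 H3K27me3 columns are bright for most rows, and the 4 IgG columns hold 20 fragments in all, 7 of them at Fgf5 in WT replicate 2.

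Against IgG, 43 of the 52 ligand genes held at least 10 fragments over the 8 libraries, and 42 had higher H3K27me3 at an adjusted p under 0.05 by a quasi-Poisson model fitted to all genes. Over all genes 69.7% of those tested were higher (4637 of 6657), and counted over every gene, tested or not, this was 80.8% of the ligand genes against 22.3% of all genes. IgG held few fragments at the ligand starts, so the minimum of 10 was reached almost only through H3K27me3. The median level over all 52 was 22.7 RPM, beside 0.351 RPM over all genes. Because IgG was empty at 40 of the 52 starts, the fold for those is a lower bound against a floor of 3 fragments over the 4 IgG libraries, 3.79 RPM. H3K27me3 was at least 17.6-fold higher at Fgf15 (adjusted p = 0.000881) and at least 1.52-fold higher at Bmp10, the lowest such bound among the called genes. At Wnt3, with 1 IgG fragment, the ratio was 52.6 with a 95% counting interval of 9.40 to 2082. In 39 of the 52 genes (75%) every H3K27me3 library lay above every IgG library, beside 20.9% of all 20780 genes.

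The called gene with the most IgG was Fgf5, the Fgf that ends hair growth. It had 52 and 39.3 RPM in KO and 42.2 and 49.9 RPM in WT, all close together. IgG held 7 fragments there, all in WT replicate 2, and the ratio over IgG was 5.32 (95% counting interval 2.55 to 13.3). With the KO libraries alone, 4 in all, none of the 42 starts was called, nor was any of the 5854 genes tested higher (quasi-Poisson, 32 genes at an unadjusted p under 0.05 and none of them a ligand gene, limma-voom not run on this subset). With the WT libraries alone 35 were, beside 59.3% of all genes tested.

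The 10 genes not called at the annotated start fell into 3 kinds. At Fgf4, Fgf10, Fgf20 and Wnt5b another annotated start of the same gene was marked. At Wnt8b and Fgf23 the mark lay inside the gene. Fgf1, Fgf7, Fgf22 and Bmp5 had it at no annotated start and in no stretch of the first 60 kb of the gene.

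Fgf20, an Fgf of the inner ear and kidney, had 0 H3K27me3 fragments at its annotated start in all 4 libraries, which allows up to 0.394 RPM over them together. At the start of its principal transcript, 21.4 kb into the gene at position 40286953 of chromosome 8, it had 73.0 and 40.7 RPM in KO and 68.5 and 34.9 RPM in WT. Fgf10, needed for lung and limb buds, had 1.31 and 0 RPM in KO and 2.07 and 0 RPM in WT at the annotated start. Fgf20 thus held none at the annotated start and as much as Fgf15 or Wnt10b at the principal one.

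At its principal start 44.9 kb away Fgf10 had 57.3 and 15.5 RPM in KO and 63.3 and 15 RPM in WT. Fgf4, an Fgf of the early embryo, held a single fragment at the annotated start, in WT replicate 1. At its principal start 14.0 kb away it had 58.9 and 33.7 RPM in KO and 55.7 and 29.9 RPM in WT. The libraries of pair 1 were above those of pair 2 at all 3 principal starts, in KO and WT alike.

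Every gene was also counted at its principal start, an alternative chosen after the data were seen. Of the 52 ligand genes 45 were then called higher than IgG, beside 4714 of all 20780 genes. These 45 were all the ligand genes that could be tested there, and 70.5% of all genes tested were called. The minimum of fragments was again reached almost only through H3K27me3, so the share among ligand genes tested cannot decide. Fgf4, Fgf10 and Fgf20 were the 3 added. For Wnt5b the principal start is the annotated one, with 0.0865 RPM on average, and a start 95 kb into the gene had 27.7 ± 8.07 RPM (SD, n = 4).

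In Wnt8b, a Wnt of the forebrain, the mark covered 15.5 to 21 kb after the start, up to the end of the gene, where the scan stopped. That stretch held 109 and 70.2 RPM in KO and 100.3 and 105 RPM in WT. In Fgf23, the phosphate hormone of bone, it covered 5 to 9 kb after the start and reached the gene's end as well. Fgf23 held 51.0 and 29.5 RPM there in KO and 48.4 and 59.9 RPM in WT. Both stretches were marked in every library, and IgG held a fragment in them in WT replicate 1 only.

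The remaining 4 genes were nearly empty. Fgf7, an epithelial growth factor made by mesenchyme, had 0 H3K27me3 fragments at its start in all 4 libraries. Fgf22 had 4 fragments, all in KO replicate 1, Fgf1 had 3 and Bmp5 had 1. Across their bodies they held 0.0864 to 0.130 RPM per kb, beside 0.154 for the median of all genes.

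The windows of these 4 genes were poor in CG. The observed to expected CG ratio was 0.350 at Fgf7, 0.308 at Fgf22, 0.240 at Fgf1 and 0.316 at Bmp5. The median was 0.541 over the 52 ligand genes and 0.486 over all genes. The marked principal starts had 0.488 at Fgf10, 0.456 at Fgf20 and 0.598 at Fgf4, where their annotated starts had 0.263, 0.731 and 0.104. At Fgf20 the empty start was thus richer in CG than the marked one. The ratio did not separate the genes fully: Fgf21, with 13.8 ± 9.72 RPM (SD, n = 4), had 0.161, and the unmarked start of Wnt5b had 0.870. Other called starts also lay below the 0.350 of Fgf7. These were Bmp4 with 0.349 (mean 42.1 RPM), Fgf17 with 0.305 (21.7), Wnt8a with 0.283 (15.3) and Fgf6 with 0.277 (8.29). The start of Fgf21 lies 1799 bp from that of Fut1, a fucosyltransferase gene with 27.1 RPM, so their windows overlap and the fragments between them cannot be assigned to either gene. Across the 52 genes, H3K27me3 and the ratio had a Pearson r of 0.38 and a Spearman rho of 0.35, as a description over genes that share the same libraries and base composition.

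Around the called starts the mark formed stretches of several kb that leaned into the gene. A stretch was measured as consecutive 500-bp bins with at least 5 times the autosomal mean, with gaps of 1 bin allowed, over the 4 H3K27me3 libraries summed. Its median over the 42 genes was 6 kb. It reached further after the start than before it in 30 genes, less far in 8 and equally far in 4. It was 15.5 kb at Bmp4, a Bmp of mesoderm and limb, and 11 kb at Shh. At Wnt1 it was 37.5 kb, but it ran past the start of Wnt10b and so was not that of Wnt1 alone, and in the single libraries of pair 1 it was 24.5 kb in KO and 27 kb in WT. The shortest, of 2 kb, were at Bmp10, a Bmp of the heart, and at Fgf6. At 4 to 6 kb after the start the 42 genes held 4.12 ± 0.491 RPM per kb (SD, n = 4 libraries), against 0.867 ± 0.299 at 4 to 6 kb before it, and no library of the first overlapped one of the second. Over all genes H3K27me3 leaned the same way but less, with 1.04 ± 0.213 after and 0.831 ± 0.121 before, in overlapping ranges. IgG had 1.30 after and 0.985 before over all genes, and 0.115 and 0.270 at the 42. No stretch was measured outside the ligand genes, so the count of 30 has no share of all genes beside it.

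**Figure D2:**
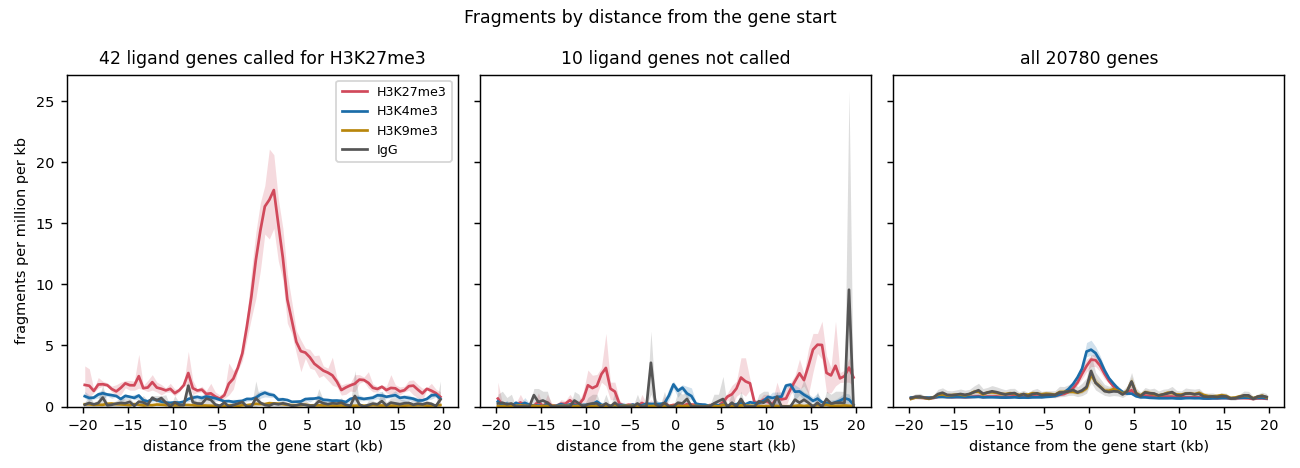
RPM per kb by distance from the gene start, in 500-bp bins, for the 42 ligand genes called for H3K27me3, the 10 not called and all 20780 genes, with lines for the mean and bands for the lowest and highest of 4 libraries per target. H3K27me3 peaks at the start of the called genes with a shoulder into the gene, whereas in the 10 others its peaks lie away from the annotated start.

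Several ligand genes lie side by side, and their neighbours differed. Wnt10b and Wnt1, on opposite strands with starts 11.7 kb apart, were both high at 55.0 and 50.4 RPM. The stretch counted from Wnt1 reached 17 kb before its start, past that of Wnt10b, while the one counted from Wnt10b, with bins placed from its own start, was 9.5 kb. Wnt9b had 13.1 ± 1.35 RPM (SD, n = 4) where Wnt3, 24.3 kb away, had 61.9. Fgf6 had 8.29 ± 6.24 RPM where Fgf23, 57.3 kb away, had 0. In the Fgf3, Fgf4 and Fgf15 cluster of chromosome 7, the starts of Fgf3 and Fgf15 had 30.6 and 56.2 RPM.

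By family, H3K27me3 was called at 17 of 19 Wnt starts, 13 of 20 Fgf starts, 9 of 10 Bmp starts and 3 of 3 Hedgehog starts. It was called at 22.3% of all genes. The median level was 24.4 RPM for Wnt, 14.0 for Fgf, 31.0 for Bmp and 34.3 for Hedgehog, beside 0.351 over all genes. At principal starts the Fgf count was 16 and the others were unchanged, where 4714 of all 20780 genes were called. No difference between families was tested.

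H3K4me3 was called at 7 ligand starts: Fgf20, Fgf11, Fgf8, Wnt7a, Wnt2b, Ihh and Wnt1. Over all genes 77.5% of those tested were higher in H3K4me3 than in IgG, and 18 of the 52 ligand genes held enough fragments to be tested. Counted over every gene, this was 13.5% of ligand genes against 44.9% of all genes. The median level was 0.804 RPM over the 52 and 3.08 RPM over all genes. With WT libraries alone 3 of 8 tested were called and with KO libraries alone 2 of 16, beside 45.9% and 48.7% of all genes tested.

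Fgf20 had the most H3K4me3, 17.1 and 16.5 RPM in KO and 12.7 and 15.1 RPM in WT, at least 4.17-fold over the IgG floor (adjusted p = 0.000428). Its annotated start lies 873 bp from that of Micu3, a mitochondrial calcium uptake gene on the opposite strand with 11.3 RPM of H3K4me3, so the 2 windows overlap. At the marked principal start of Fgf20 no library held an H3K4me3 fragment. Whether the H3K4me3 fragments belong to the start of Fgf20 or to that of Micu3 cannot be told apart.

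Fgf11, an intracellular Fgf homologue, had 15.6 and 12.7 RPM of H3K4me3 in KO and 7.65 and 12.4 RPM in WT. Fgf8, which patterns the limb and midbrain, had 11.9 and 10.02 RPM in KO and 14.0 and 10.5 RPM in WT. Both also carried H3K27me3, at 18.7 ± 4.14 and 14.2 ± 6.59 RPM (SD, n = 4). The 4 H3K4me3 libraries were near each other at Fgf8, WT replicate 1 was the lowest at Fgf11, and WT replicate 2 had a single H3K27me3 fragment at Fgf8.

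Wnt7a, a dorsal limb and female tract Wnt, had 5.19 and 8.25 RPM of H3K4me3 in KO and 6.37 and 6.88 RPM in WT. Wnt2b, a Wnt of the eye and lung, had 5.94 and 8.84 RPM in KO and 6.37 and 3.21 RPM in WT. Fgf10 had 7.42 and 7.07 RPM in KO and 7.65 and 5.50 RPM in WT but was not called, since IgG held 2 fragments there (adjusted p = 0.188). KO and WT overlapped at all 3 genes. Within 2 kb of the start Fgf10 passed, with a log2 difference of 2.13 (adjusted p = 0.0342).

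Both marks were called at 6 of the 52 starts (Fgf11, Fgf8, Wnt7a, Wnt2b, Ihh and Wnt1), which is 11.54% of ligand genes beside 3.16% of all genes. Of these, Wnt1 had 3.71 and 4.42 RPM of H3K4me3 in KO and 0 and 4.58 RPM in WT, so WT replicate 1 held no fragment. Of the 42 ligand starts called for H3K27me3, 14.3% were called for H3K4me3 too. Over all genes this was 656 of the 4637 called for H3K27me3, a similar share. H3K27me3 alone was called at 36, H3K4me3 alone at 1 and neither at 9. Set directly against each other on library totals, H3K27me3 was higher than H3K4me3 at 41 ligand starts and lower at 3 (Fgf20, Wnt5b and Fgf10), where 32.2% and 61.4% of the 15789 genes tested went each way. These totals set the balance: median-of-ratios scaling moved every gene by -2.35 on the log2 scale and gave 33 and 7, beside 22.2% and 68.4% of all genes tested. Relative to that shift Fgf11, Fgf8 and Wnt7a had more H3K4me3 than H3K27me3 (log2 difference -1.94, -1.62 and -0.73), against 0.42, 0.73 and 1.63 on library totals.

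**Figure D3:**
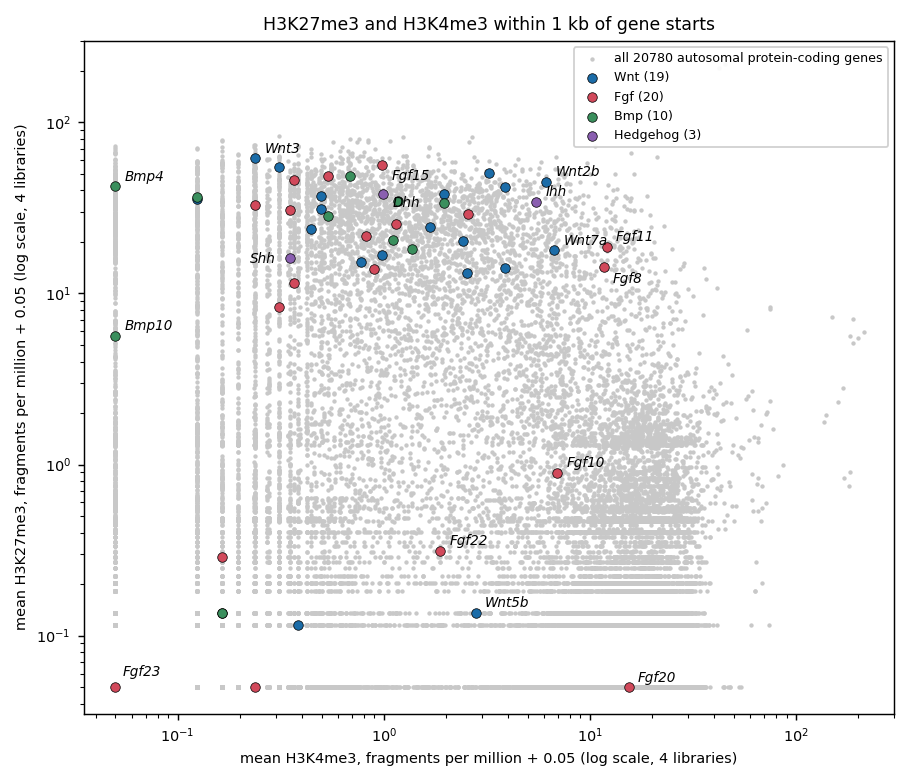
Mean H3K27me3 against mean H3K4me3 within 1 kb of the start, as RPM plus 0.05 on log scales over 4 libraries each, for all 20780 genes (grey) and the ligand genes by family, where Bmp includes Nodal; 12 genes above 300 RPM lie outside the axes. Most ligand genes sit in the upper left, Fgf11 and Fgf8 in the upper right and Fgf20 at the lower right with 15.4 RPM of H3K4me3.

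H3K9me3 levels were low at the ligand genes, as over all genes. The library totals used for scaling include X and Y. In KO replicate 1, 3963850 of 6746382 distinct H3K9me3 fragments were autosomal, against 236269 of 270598 in IgG. This scaling lowers autosomal H3K9me3 relative to IgG. No start was higher than IgG by the quasi-Poisson model or by limma-voom, and 21 of the 52 held enough fragments to be tested. At an unadjusted p under 0.05 there was 1 by the quasi-Poisson model, Fgf5, and it was lower (adjusted p = 0.00313), where 3.63% of all genes tested were. By limma-voom 14 of the 21 had an unadjusted p under 0.05, beside 46.9% of all genes tested, and 4 were called lower, beside 22.8%. Without IgG WT replicate 2, which held the 7 IgG fragments of Fgf5, no start was called. The 4 H3K9me3 libraries together held 454 fragments at the 52 starts, with a median level of 0.356 RPM beside 0.140 RPM over all genes. These low levels followed H3K27me3 from gene to gene, with a Pearson r of 0.86 and a Spearman rho of 0.86 across the 52 genes and of 0.91 and 0.37 across all 20780. The highest, Wnt3 with 1.21 RPM, was also the highest in H3K27me3. This is a description across genes that share the same animals and runs.

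Across whole gene bodies H3K27me3 was higher than IgG in 40 of the 52 ligand genes and lower in 1, where 29.9% of all genes tested were higher and 23.2% lower. Bmp4 was densest, with 26.5 and 18.7 RPM per kb in KO and 22.4 and 23.0 in WT. Wnt1 had 16.2 and 24 RPM per kb in KO and 14.5 and 32.6 in WT. Wnt10a, a Wnt of teeth and hair, had 15.4 and 17.5 RPM per kb in KO and 12.9 and 17.3 in WT. The KO and WT libraries overlapped at all 3 genes.

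Ihh had 15.5 and 16.8 RPM per kb in KO and 15.3 and 13.3 in WT. Wnt10b had 11.9 and 14.4 RPM per kb in KO and 9.53 and 18.8 in WT. The median over the 52 genes was 3.42 RPM per kb and over all genes 0.154. The gene lower than IgG was Fgf14, an intracellular Fgf homologue with a long body and 32.8 ± 15.5 RPM (SD, n = 4) at its start (log2 difference -0.78 ± 0.23, SE, adjusted p = 0.00616). With KO libraries alone the count of higher genes was 19. For this and the next counts the share of all genes is not given, so they are not results about the ligand genes. The count of lower genes was 3 when every deposited fragment was counted, 2 with WT libraries alone or without H3K27me3 WT replicate 2, and 0 with median-of-ratios scaling, with KO libraries alone or without IgG WT replicate 1.

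H3K4me3 across bodies was higher than IgG in 10 ligand genes, where 44.6% of all genes tested were, and lower in Fgf10 and Fgf14, where 6.42% were. The largest fitted difference with IgG fragments present was at Fgf11 (log2 difference 3.69 ± 1.79, SE, adjusted p = 0.00515). With WT libraries alone none was higher and 1 of 36 was lower, beside 2.11% of all genes tested. The lower count was 7 of 46 by limma-voom, 6 of 51 when every deposited fragment was counted and 4 of 46 with median-of-ratios scaling, beside 10.9%, 11% and 10.2% of all genes tested. H3K9me3 across bodies was lower than IgG in Bmp8a, Fgf10, Fgf14 and Fgf12 and higher in none, where 12.6% of all genes tested were lower. The count depended on the tool, on repeated fragments and on scaling. It was 29 of 48 lower by limma-voom, 19 of 51 when every deposited fragment was counted and 8 of 48 with the animal as a block. Of all genes tested 73%, 51% and 31.5% were lower in these fits, so each count lay below that share. Median-of-ratios scaling moved every difference by 1.83 on the log2 scale and gave fewer calls. The densest H3K9me3 bodies were Ihh with 0.293 RPM per kb, Bmp4 with 0.291 and Wnt1 with 0.235, each also among the 5 densest in H3K27me3.

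Other genes of the 4 pathways, 115 receptors, transducers, inhibitors and targets listed by role, were marked less evenly. H3K27me3 was called at 68 of their starts and H3K4me3 at 36, with both at 8 and neither at 19, and the median H3K27me3 level was 14.3 RPM. That is 59.1% for H3K27me3, 31.3% for H3K4me3 and 6.96% for both, beside 22.3%, 44.9% and 3.16% of all genes, so the count for H3K4me3 lay below that of all genes. Receptors and secretion genes of the Wnt pathway had H3K27me3 at 17 of 23, led by Lgr5 and Fzd8 with 46.2 and 45.9 RPM, and H3K4me3 at 7, led by Fzd9 with 13.1 RPM. Secreted Wnt inhibitors and other Wnt antagonists had it at 10 of 16, with 49.5 RPM at Dkk1 and 43.7 RPM at Dkk3. The intracellular Wnt genes ran the other way, with H3K4me3 at 8 of 11 and H3K27me3 at 3. Axin1 of the destruction complex had 17.3 RPM of H3K4me3 there. Gsk3b of the same complex had 21.4 RPM but was not called, since IgG held 10 fragments at its start (adjusted p = 0.298, quasi-Poisson). By contrast, Tcf7l1 and Lef1, transcription factors, had 33.5 and 18.8 RPM of H3K27me3, Lef1 beside 14 RPM of H3K4me3.

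In the Fgf pathway H3K27me3 was called at 6 of 10 receptors and co-receptors, with 43.3 RPM at Kl, the Fgf23 co-receptor. Feedback genes and targets had it at 7 of 12, with 54.5 RPM at Spry4 and 49.8 RPM at Dusp6, and H3K4me3 at 6, with 34.6 RPM at Spred3. Receptors and Smads of Bmp and Nodal were split evenly, 6 of 15 for each mark and none for both, with 48.3 RPM of H3K27me3 at Acvrl1 and 12.0 RPM of H3K4me3 at Acvr2a. Bmp and Nodal inhibitors had H3K27me3 at 9 of 14, with 38.9 RPM at Chrd and 34.3 RPM at Grem1, and 26 RPM of H3K4me3 at Bambi. Hedgehog receptors and transducers had it at 10 of 14, with 41.6 and 40.6 RPM at Gli1 and Gli2, while Sufu, which restrains Gli proteins, had 36.6 RPM of H3K4me3. No list was tested as a set.

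KO and WT were compared to see whether loss of H2A.B changed these marks at the ligand genes. By the quasi-Poisson model with adjustment over all genes, no ligand gene was called at its start among the 18 that could be tested in H3K4me3 (0% of 11931 genes tested), the 43 in H3K27me3 (0% of 6486) and the 21 in H3K9me3 (0% of 3205). In IgG (0% of 57) no ligand gene held enough fragments. At an unadjusted p under 0.05 there was 1 ligand gene in H3K4me3 among 522 genes, none in H3K27me3 among 31 and none in H3K9me3 among 86. limma-voom also called none, with 415, 154 and 51 genes at an unadjusted p under 0.05. Each genotype had 2 animals, and H3K27me3 of WT replicate 2 held a single fragment at starts such as Fgf8 and Fgf21.

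The gene with the smallest p was Fgf18, an Fgf of bone and cartilage growth, whose H3K4me3 was 2.23 and 6.48 RPM in KO and 0 and 1.38 RPM in WT. It was higher in KO in both pairs, by 2.03 and 2.05 on the log2 scale with 0.5 added to each count, but on 25 fragments against 3 (unadjusted p = 0.00822 and adjusted p = 0.983, quasi-Poisson). Wnt9b, a kidney Wnt, was next with 3.71 and 3.24 RPM in KO and 2.55 and 0.458 RPM in WT. Neither gene passed the adjustment.

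For H3K27me3 the smallest p values were those of Fgf21, the liver Fgf hormone, and Fgf12. Fgf21 had 17.3 and 7.02 RPM in KO and 25.9 and 4.99 RPM in WT, a log2 difference with 0.5 added to each count of -0.58 in pair 1 and 0.05 in pair 2, where it rested on 5 fragments against 1 (adjusted p = 0.9997, quasi-Poisson). Fgf12 had 13.4 and 4.21 RPM in KO and 18.3 and 9.98 RPM in WT. For H3K9me3 they were Fgf11, on 10 fragments, and Fgf5, on 14, at log2 differences of -2.10 ± 1.37 and 1.22 ± 1.04 (SE), neither called.

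Summed over all 52 starts, H3K27me3 was higher in KO in pair 1, at 1476 against 1346 RPM, and lower in pair 2, at 1005 against 1197 RPM. These are log2 differences of 0.13 and -0.25, where all gene starts together were higher in KO by 0.10 and 0.07. H3K4me3 was higher in KO in both pairs, by 0.39 and 0.35 on the log2 scale, where all gene starts together were higher by 0.33 and 0.11. For H3K9me3 the difference was -0.20 in pair 1 and 0.26 in pair 2, beside 0.01 and 0.23 for all gene starts. The families followed the sum for H3K27me3, each higher in KO in pair 1 and lower in pair 2. For H3K4me3, Wnt was higher in KO by 0.60 and 0.68, Fgf by 0.29 and 0.16 and Bmp by 0.80 and 0.13, the last on 3 to 29 fragments per library, while Hedgehog had differences of -0.13 and 0.44. No difference between families was tested here either.

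**Figure D4:**
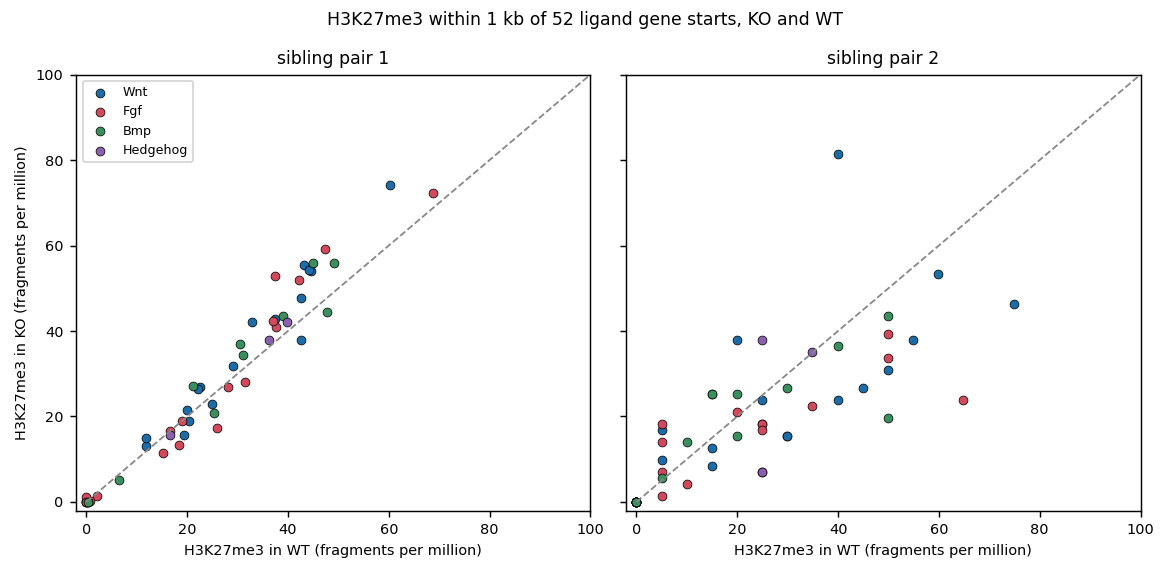
H3K27me3 within 1 kb of the 52 ligand gene starts in KO against WT, in RPM, for each sibling pair, with points coloured by family (Bmp includes Nodal) and a dashed line of equal values. Points lie close to the line in pair 1 and scatter in pair 2, where the WT library held 240 fragments at all 52 starts together.

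Gene bodies gave the same counts, with no ligand gene called between KO and WT among the 44, 51, 48 and 8 tested in the 4 targets by either tool (0% of 17152, 13290, 16151 and 4881 genes tested in H3K4me3, H3K27me3, H3K9me3 and IgG). At an unadjusted p under 0.05 there were 73, 38 and 8 genes for the 3 marks (39, 7 and 8 by limma-voom), none of them a ligand gene. In IgG 2 of the 8 ligand genes tested reached that level (0 by limma-voom). The share of all 4881 genes that reached it in IgG is not given, so this count is no result about the ligand genes. For H3K4me3 the 2 smallest p values were at Wnt7a, higher in KO by 0.55 and 0.64 on the log2 scale in the 2 pairs (0.5 added to each count here too), and Bmp8b, higher by 0.71 and 0.36. For H3K27me3 they were at Wnt4, with differences of -0.50 and -0.53, and Fgf6, with -0.43 and -1.83. Fgf12 and Fgf15 had the smallest for H3K9me3, and Bmp5 and Bmp8a for IgG. Leaving out H3K27me3 KO replicate 1 called Fgf10 lower in KO (log2 difference -1.43, adjusted p = 0.0298), where 0.8% of the 11121 genes tested were lower. Leaving out IgG WT replicate 2 called Bmp8a lower in the IgG of KO (log2 difference -2.69, adjusted p = 0.0149), where 0.553% of 3981 were. In both, the lone library of a genotype was assumed to vary like those of the other.

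Small fragments made up more of the library in KO at these starts, in every pair. Small fragments, of at most 120 bp, were counted per large fragment, of at least 150 bp, in the summed windows of the 52 genes. For H3K27me3 the ratio was 0.156 and 0.261 in KO and 0.0926 and 0.121 in WT, so KO was higher by 0.75 and 1.11 on the log2 scale in the 2 pairs. For H3K4me3 it was 0.5 and 0.422 in KO and 0.377 and 0.244 in WT, higher by 0.41 and 0.79. For H3K9me3 it was 0.102 and 0.141 in KO and 0.0579 and 0.114 in WT, on 7 to 13 small fragments per library. KO was above WT in all 6 pairings of mark and pair, and the genotypes did not overlap for H3K27me3 and H3K4me3.

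The mean differences were 0.93 for H3K27me3, 0.60 for H3K4me3 and 0.56 for H3K9me3, against an SD between replicates of 0.42, 0.34 and 0.54. The H3K9me3 difference was close to that spread. An exact two-sided permutation test gave p = 0.333 for H3K27me3, 0.333 for H3K4me3 and 0.667 for H3K9me3. With 2 libraries against 2 it could not go below 0.333, so it cannot decide. In the same windows of all gene starts the differences were 0.67 and 0.84 for H3K27me3, 0.66 and 0.93 for H3K4me3 and 0.18 and 0.09 for H3K9me3. On the autosomes as a whole they were 0.67 and 0.71, 0.76 and 0.97, and 0.52 and 0.43. KO was thus higher for each mark at all gene starts and on the autosomes too, and whether the ligand genes differed from these was not tested. IgG held too few fragments at these starts, with no small fragment in 2 libraries. On the autosomes IgG was higher in KO as well, by 0.39 and 0.47.

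**Figure D5:**
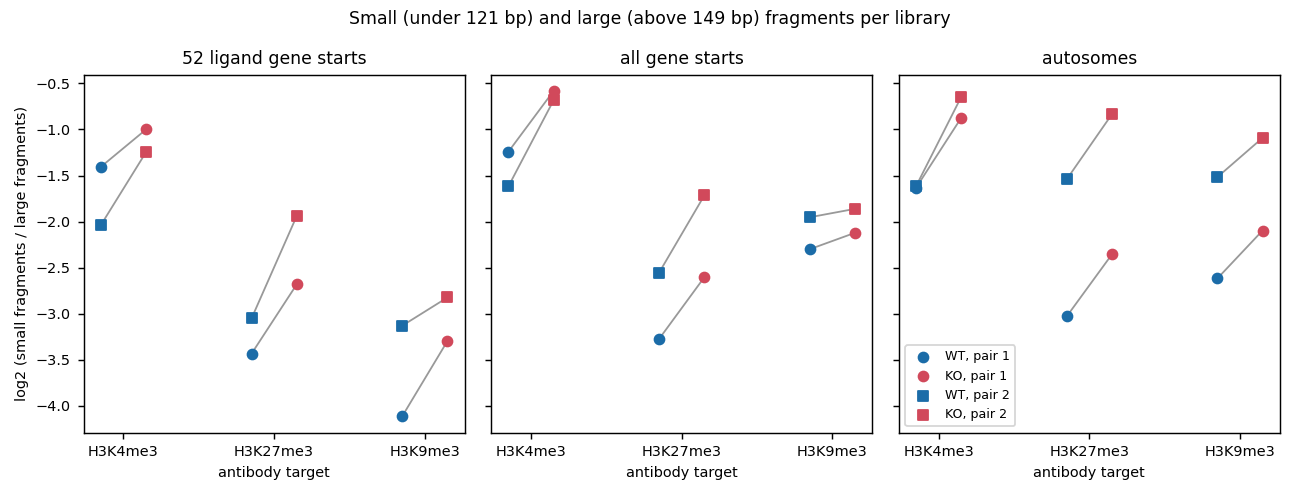
The log2 ratio of small (at most 120 bp) to large (at least 150 bp) distinct fragments per library, for the 52 ligand gene starts, all gene starts and the autosomes, with WT and KO of a sibling pair joined by a line. Every line rises from WT to KO, and at the ligand starts H3K27me3 rises by 0.75 in pair 1 and 1.11 in pair 2.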

How the data were processed

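Chromatin of sorted spermatids was profiled in 16 libraries, 2 animals per genotype and target. The authors aligned paired 25-bp reads to mm10 with Bowtie2 (2.3.4.3 in the submitters' processing notes) and deposited 1 list per library that places each mapped fragment of up to 700 bp on its chromosome and gives its length, with no scaling or pooling. These are positions, which in the deposited files carry no counts or other unit. Although removal of PCR duplicates is described, 33.6% to 83.4% of fragments repeated another, so each position was counted once; the lists hold no molecular identifiers, and intervals and floors cover counting error only.

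Fragments were assigned by midpoint to windows within 1 kb of GENCODE vM21 gene starts and to gene bodies, and scaled to the distinct fragments on autosomes, X and Y. Genes with at least 10 fragments in a comparison were fitted with a quasi-Poisson log-linear model (R 4.3.3; dispersions moderated with limma 3.58.1, floor 1), with Benjamini-Hochberg adjustment over all autosomal protein-coding genes, called under 0.05. limma-voom was an alternative. The tests were checked on simulated fragments. With added spread between animals, the simulated KO against WT comparison of H3K27me3 gave more false than true calls, and many true changes were missed for H3K4me3, over IgG and between KO and WT, and for H3K9me3 over IgG. A single call between KO and WT in H3K27me3 is therefore weak, and an absence of calls shows neither equal levels nor an absent mark. Libraries, not genes or fragments, were the replicates, and their spread may be partly technical.

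Ligand genes, gene lists and tests were chosen with earlier results of these data known. All 52 genes could be named; those described by rule were the 6 highest and 3 lowest in H3K27me3, the 6 highest in H3K4me3, the Hedgehog genes, Bmp8a and Bmp8b, the 5 and 3 densest bodies in H3K27me3 and H3K9me3, and, between KO and WT, the 2 smallest p values per target, some of them by means or differences only. Wnt5b, Wnt8b, Fgf4, Fgf5 and other genes outside these were named after their values were seen. The study used sibling pairs as replicates, and replicate numbers were read as pairs: deviations of same-numbered libraries from their genotype mean correlated at r = 0.23, 0.30 and 0.17 for H3K4me3, H3K27me3 and H3K9me3 over gene starts.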

Additional observations from a re-analysis of the deposited data

How the results depend on the processing

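H3K27me3 at ligand gene starts stayed at 35 to 45 called genes under the alternatives that kept both genotypes or WT, and at 37 to 42 when 1 library was left out, but was 0 with KO libraries only, and its body count fell from 40 to 19 there. With KO libraries only no gene of any kind was called at starts, and the share of all genes across bodies is not given. H3K4me3 at starts moved from 7 to 3 with WT libraries only or replicate 1 libraries alone and to 2 with KO libraries only (5 to 8 with 1 library left out). Across bodies it moved from 10 to 6 with median-of-ratios scaling, 4 with KO and 0 with WT libraries only. For H3K9me3 the counts given for the main fits and for limma-voom are of genes lower than IgG. At starts the count moved from 1 to 2 with every deposited fragment and to 4 with limma-voom, beside 22.8% of all genes tested by limma-voom. It was 0 with KO libraries only or replicate 1 alone (0 to 1 with 1 library left out, 0 without IgG WT replicate 2). Across bodies the H3K9me3 count moved from 4 lower genes to 19 with every deposited fragment, 29 with limma-voom and 8 with the animal as a replicate block. Of all genes tested 51%, 73% and 31.5% were lower in these fits. The count was 2 with autosomal totals or median-of-ratios scaling and 1 with KO libraries only (3 to 6 with 1 left out). Starts with more H3K4me3 than H3K27me3 went from 3 to 7 with median-of-ratios scaling, where Fgf11 (log2 -1.94), Fgf8 (-1.62) and Wnt7a (-0.73) reversed. The replicate block changed no other count by over 1.5 times and no call between KO and WT. It did move the difference between marks at Fgf8 to 0.47 (adjusted p = 0.0995).

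Between KO and WT, the count across bodies was 0 to 1 for H3K27me3 and for IgG when 1 library was left out, from Fgf10 without KO replicate 1 and Bmp8a without IgG WT replicate 2. Leaving out 1 library gave a range of -1.81 to 1.66 at Fgf21 and -2.08 to 0.26 at Fgf12, both reversed without H3K27me3 WT replicate 1, and of -0.14 to 1.27 at Bmp8b across the H3K4me3 body, reversed without KO replicate 2. Every deposited fragment reversed Bmp8a in IgG (0.36). None of these reversed values was called. The small to large ratio of H3K4me3 rose from 0.60 to 0.94 with every deposited fragment; left with 1 pair each, the ranges were 0.41 to 0.79 for H3K4me3, 0.75 to 1.11 for H3K27me3 and 0.31 to 0.82 for H3K9me3. The causes of these moves were not tested. At starts, median-of-ratios scaling was not run for the 3 marks over IgG and for IgG between KO and WT, because only 31 to 70 genes had fragments in every library. The start of the principal transcript and replicate 1 alone were chosen after seeing the data. IgG depth limits every fold over IgG, and that of H3K27me3 WT replicate 2 limits its comparisons of KO with WT.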
